A study of Mus musculus with 2 samples.

Results

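Genes that build elastic fibres or restrain mineral deposition in matrix were followed across the vascular cells of mouse brain: Eln, Fbn1, Fbln5, Emilin1, Lox, Loxl1, Mfap4, Mfap5, Mgp and Ogn, 10 of the 30905 genes in the count tables. They were picked as a gene family rather than for a measured value, but with earlier results of these data known. The data are single-cell RNA-seq (10x Genomics 3′ chemistry, version 3.1) of brain cells enriched for Dendra2 from male Dmp1Cre-COX8Dendra2 mice aged 4-6 weeks. In this strain Cre is expressed under sequences of Dmp1, and the labels pair it with Dendra2, a fluorescent protein that COX8 directs to mitochondria. The 2 libraries, replicate 1 and replicate 2, form a single group with no control group, so the comparisons here are between cell classes within the libraries. The labels do not say how many animals were pooled, or whether the replicates are separate animals. The p-values then measure only how far differences between classes vary between these 2 libraries, with the overall shift between libraries taken out. That spread may be technical.

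Elastic fibres give arteries their recoil. They consist of a core of cross-linked elastin laid on a scaffold of fibrillin microfibrils, to which elastin is delivered and anchored by fibulin 5 and emilin 1, and in which lysyl oxidases form the cross-links. In vessel walls the fibres are made mainly by smooth muscle cells, with a contribution from endothelium and adventitial fibroblasts. Matrix Gla protein, the product of Mgp, binds calcium and bone morphogenetic proteins and keeps arterial walls and cartilage from calcifying, and Ogn encodes osteoglycin, a small leucine-rich proteoglycan of bone and vessel matrix.

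After barcodes with under 500 genes, under 1000 UMIs (unique molecular identifiers, each 1 captured transcript) or 20% or more mitochondrial UMIs were removed, 7697 and 6427 barcodes remained in replicates 1 and 2, with medians of 6897 and 3016 UMIs. Cells were sorted into classes by marker counts per 10000 UMIs, none of them a gene of the family. Smooth muscle cells had Acta2 of at least 80 and were split at Cnn1 of 3, where Cnn1 (calponin 1) is a gene of mature contractile smooth muscle, into 1168 and 126 Cnn1-high and 2419 and 664 Cnn1-low cells. The 715 and 353 transitional cells had Acta2 from 20 to below 80 with Rgs5 of at least 80, the 2341 and 3289 pericytes had Vtn of at least 50 with Acta2 below 20, and the 248 and 1125 endothelial cells had Cldn5 of at least 5 with Vtn below 20. A further class of mural cells with at least 2 Ccl19 UMIs held 110 and 10 cells. The summed pericyte markers stood at 35521 and 29722 UMIs per 1000000 (CPM) in pericytes and 2011 and 1852 in Cnn1-high cells. Transitional cells held 25852 and 21099 CPM of them. The summed endothelial markers stood at 18511 and 16113 CPM in endothelium, 537 and 1061 in pericytes and 15.3 and 23.7 in Cnn1-high cells. These lists include the gate genes Vtn, Rgs5 and Cldn5, so part of each sum follows from the gating. Replicate 2 was the shallower library in every class, and its Cnn1-high class held 126 cells. Among pericyte barcodes, 483 (20.6%) and 482 (14.7%) also carried an endothelial or fibroblast signature, and the differences that moved most without those barcodes are given both ways. The libraries shared 14 barcodes, 4 of them in the same class.

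The genes divided by cell class rather than moving as a block. Smooth muscle had more Eln, Lox, Loxl1 and Emilin1 than pericytes, endothelium had more Fbln5 than smooth muscle or pericytes, Mgp and Ogn were spread over all mural cells, and Mfap4 and Mfap5 were nearly absent outside fibroblasts and Ccl19 mural cells. Counts were summed per class and library and tested across all genes with edgeR's quasi-likelihood test, with the library as a block, for 12379 genes. Of the 10 genes, 8 could be tested, and Mfap4 and Mfap5 had too few counts. Between Cnn1-high and Cnn1-low smooth muscle, 3 of the 8 passed an adjusted p of 0.05 (2 higher, 1 lower), where 5.79% of all genes did (2.23% higher, 3.56% lower). Between smooth muscle (the mean of both classes) and pericytes 5 of 8 passed (4 higher, 1 lower), against 45.9% of all genes (20.3% higher, 25.6% lower). Between smooth muscle and endothelium 7 of 8 passed (6 higher, 1 lower), against 53% of all genes (26.2% higher, 26.7% lower). Between pericytes and endothelium 7 of 8 passed (4 higher, 3 lower), against 46.5% of all genes (23.1% higher, 23.4% lower). The 4 higher include Loxl1, which had no endothelial UMI and whose replicate 1 pericyte level lay under the endothelial floor. Transitional cells differed from pericytes in 2 of 8 (both higher), against 17.7% of all genes (9.39% higher, 8.27% lower). They differed from Cnn1-low smooth muscle in 2 of 8 (both lower), against 8.39% of all genes (4.09% higher, 4.31% lower). The shares over all genes ran from 5.79% to 53%. For smooth muscle and for transitional cells, each against pericytes, the count of the family is near its background. Those 2 counts are no result about the family. The median log2 difference of the 8 genes was 0.59 for Cnn1-high against Cnn1-low cells (all genes -0.03), 1.03 for smooth muscle against pericytes (all genes -0.10) and 0.30 for transitional cells against pericytes (all genes -0.07). It was -0.21 for transitional against Cnn1-low cells (all genes -0.00). For smooth muscle against endothelium it was 3.72 (2.53 with endothelial Loxl1 set to a floor of 3 counts per library, all genes -0.01). For pericytes against endothelium it was 2.07 (0.89 with Loxl1 at that floor, all genes 0.03).

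**Figure D1:**
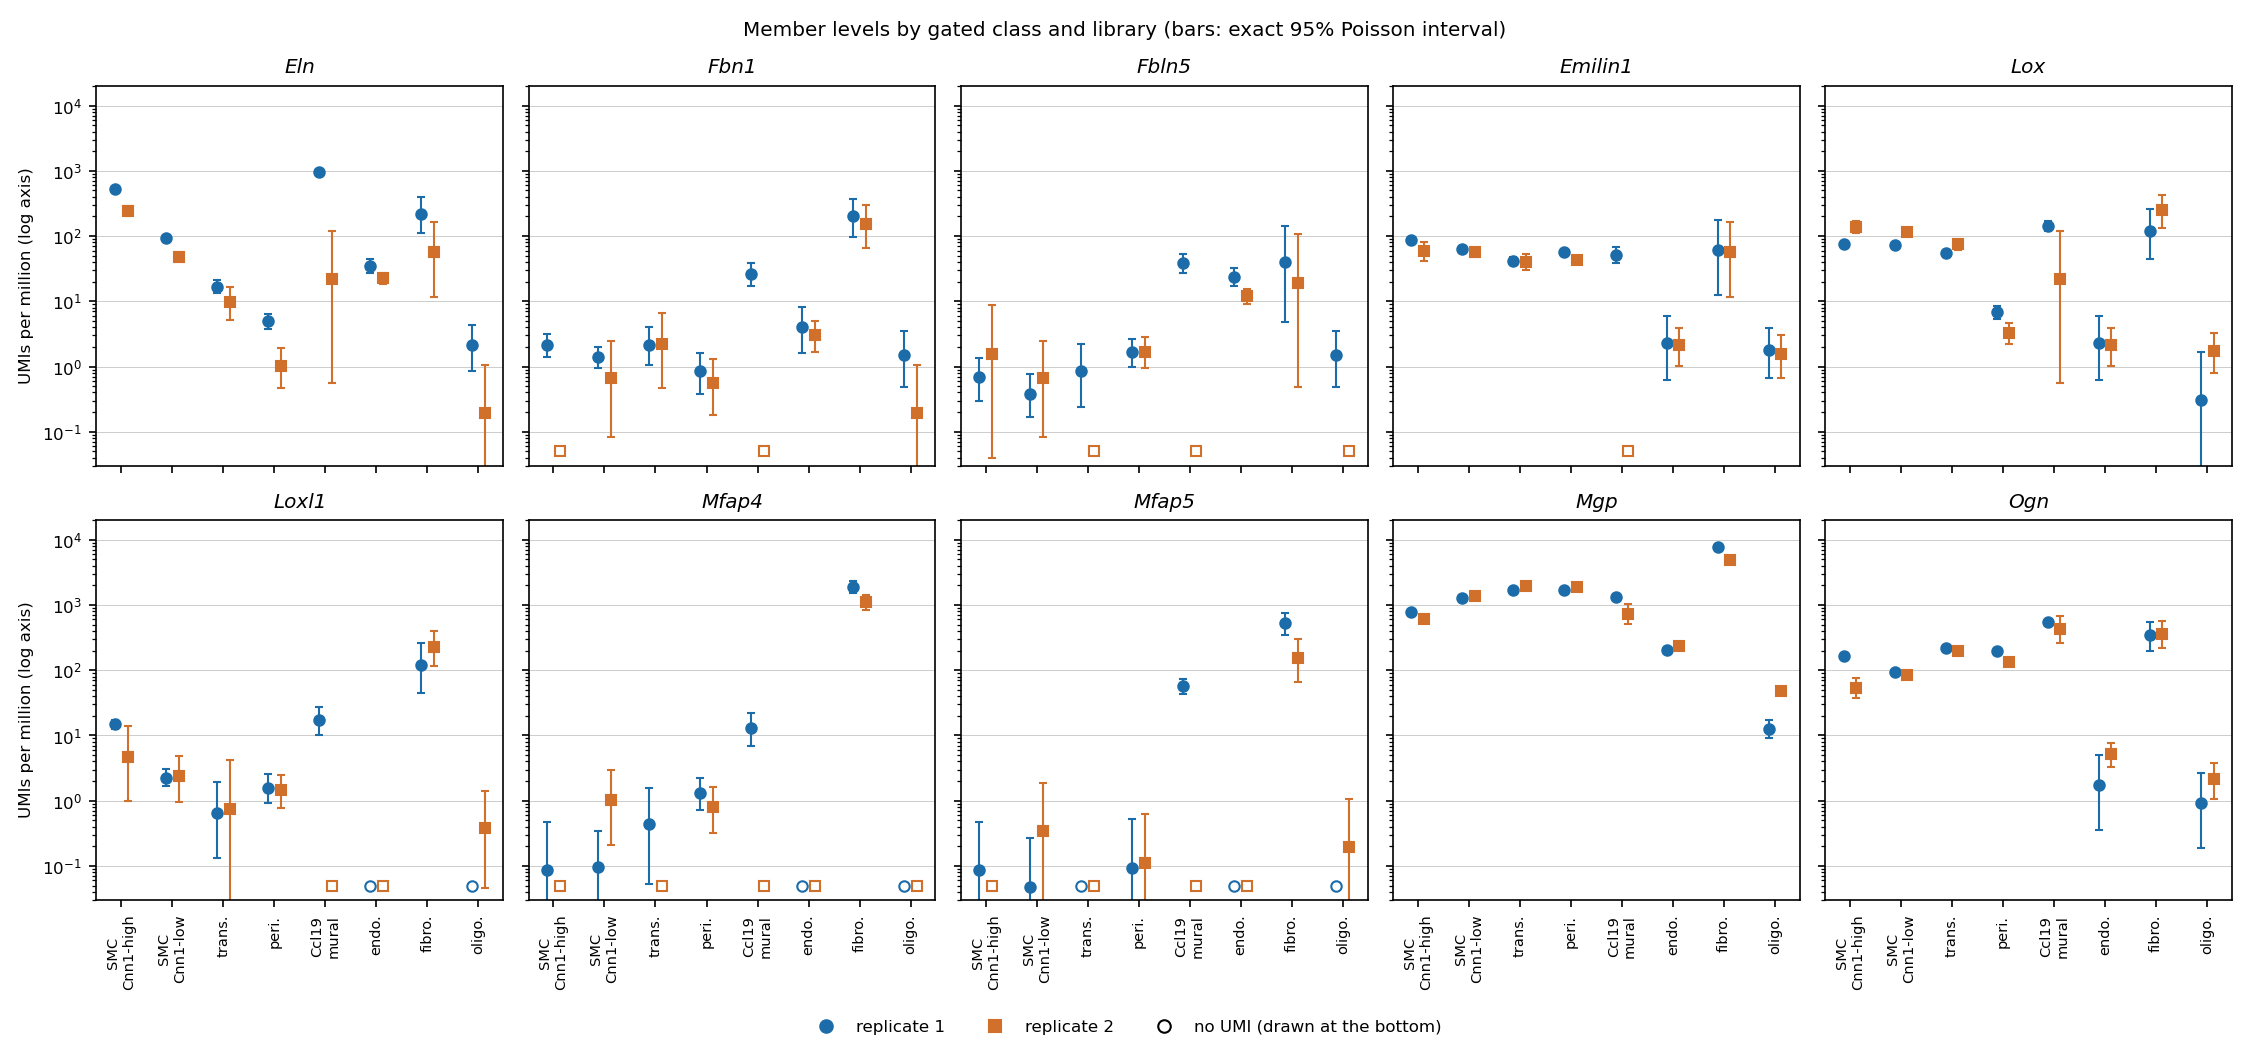
Level of each of the 10 genes, in CPM on a log axis, by cell class and library. Points are 1 library each, bars are 95% Poisson intervals of the counts, and open symbols mark classes with no UMI. Eln runs from 530.0 and 243 in Cnn1-high smooth muscle down to 4.96 and 1.01 in pericytes, while Mgp stays at 600.5 or above in every mural class.

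Eln, which encodes tropoelastin, the core of the fibre (5:134702593-134747323, minus strand, GRCm38), was graded across the cell classes. Cnn1-high smooth muscle held 530.0 CPM (95% Poisson interval 517 to 543, 6181 UMIs) in replicate 1 and 243 (206 to 285, 154 UMIs) in replicate 2. Cnn1-low smooth muscle held 95 (90.8 to 99.3) and 48.3 (40.7 to 56.9), and endothelium 35.2 (26.9 to 45.2) and 22.6 (18.5 to 27.3). Transitional cells held 16.7 (13.2 to 20.9) and 9.68 (5.16 to 16.6), and pericytes 4.96 (3.72 to 6.49) and 1.01 (0.464 to 1.93). The intervals cover counting error only. The order of the classes was the same in both libraries, no 2 neighbouring classes overlapped between libraries, and replicate 1 was higher than replicate 2 in every class. As means the levels were 387 ± 203 CPM (SD, n = 2) in Cnn1-high cells, 71.7 ± 33.0 in Cnn1-low cells and 2.99 ± 2.79 in pericytes.

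Eln was 5.67-fold higher in Cnn1-high than in Cnn1-low smooth muscle (log2 difference 2.50 ± 0.20 SE, edgeR adjusted p = 0.000192). The median mitochondrial share also differed, at 12.5% and 7.998% in Cnn1-high against 10.01% and 6.95% in Cnn1-low cells. A stricter filter, with under 10% mitochondrial UMIs, left 147 and 109 Cnn1-high cells and a difference of 2.54 ± 0.22 (adjusted p = 0.00111). Without the library block the difference was 2.52 ± 0.56 and did not pass (edgeR adjusted p = 0.127). Against pericytes, smooth muscle was 71.3-fold higher (6.16 ± 0.25, adjusted p = 3.39e-08). With barcodes of 2 lineages left out this was 6.85 ± 0.35 (adjusted p = 4.4e-08), and pericytes with neither signature held 3.55 and 0.141 CPM of Eln, from 29 and 1 UMIs. With all barcodes, transitional cells were also higher than pericytes (2.23 ± 0.32, adjusted p = 0.000737; 2.89 ± 0.45 without those of 2 lineages, adjusted p = 0.00107). Transitional cells were 6.40-fold lower than Cnn1-low smooth muscle (-2.68 ± 0.26, adjusted p = 0.000175). Endothelium lay between the mural classes: smooth muscle was higher than endothelium (2.68 ± 0.21, adjusted p = 1.56e-06) and pericytes were 11.2-fold lower than endothelium (-3.48 ± 0.28, adjusted p = 3.1e-06; -3.95 ± 0.41 without barcodes of 2 lineages, adjusted p = 1.03e-05). Both transitional differences missed the threshold without the block (adjusted p = 0.0691 and 0.0829 by edgeR). The Cnn1-high class carried 65.0% of all Eln UMIs in replicate 1 and 34.2% in replicate 2. An Eln UMI was seen in 82.8% and 43.7% of Cnn1-high cells against 24.6% and 12.05% of Cnn1-low cells, and in 3.24% and 0.245% of barcodes of the oligodendrocyte gate, at medians of 9674 and 5104.5 UMIs for Cnn1-high cells and 17491 and 10811.5 for that gate. With cells thinned to 2000 UMIs, and the 3 and 2 Cnn1-high and 20 and 24 Cnn1-low cells under that depth left out, the shares became 51.4% and 29.5% against 11.7% and 6.94%, so the gap between the classes remained at equal depth.

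Within smooth muscle, Eln followed Cnn1 step by step. Over bins of Cnn1 below 1, 1 to 3, 3 to 6, 6 to 12 and 12 or more per 10000, chosen after the class levels were seen, Eln stood at 67.5, 242, 352, 491 and 876 CPM in replicate 1. In replicate 2 it stood at 37.4, 115, 159.9, 238 and 603 CPM, the last from 15 cells. Each bin was higher than the one before it in both libraries. Fibroblast markers moved the same way between the classes: their sum was 268 and 101 CPM in Cnn1-high against 60.9 and 37.9 in Cnn1-low cells, nearly all of it Col3a1. With barcodes of 2 lineages left out, the Eln difference was 2.48 ± 0.26 (edgeR adjusted p = 0.000312). For fibroblasts that rule needs at least 2 markers, so cells with Col3a1 alone stayed in, and 1149 and 126 Cnn1-high cells remained. The part of cells with Col3a1 alone in the difference was not tested.

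**Figure D2:**
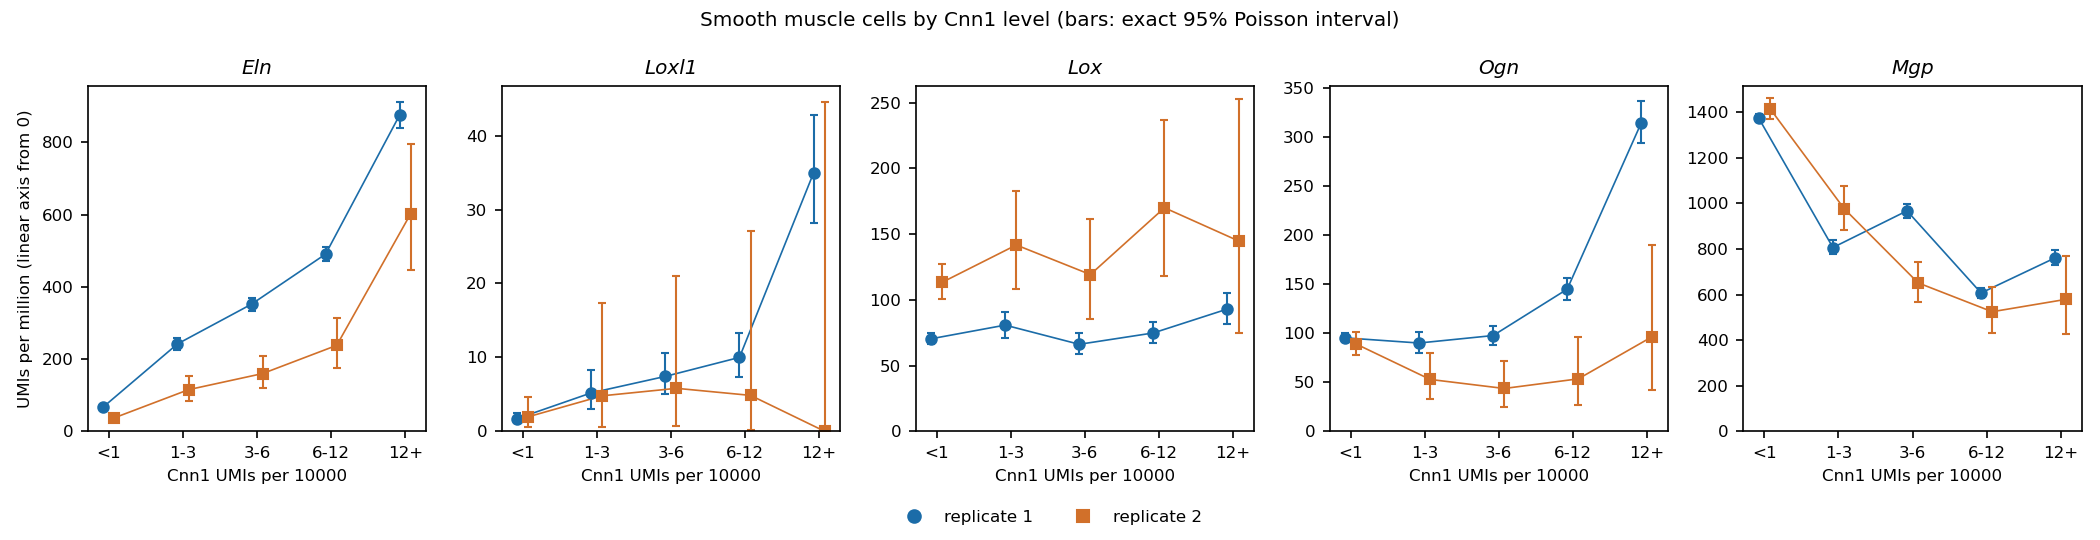
Levels of Eln, Loxl1, Lox, Ogn and Mgp (CPM, linear axes from 0) in smooth muscle cells grouped by Cnn1 counts per 10000 UMIs, 1 line per library, with 95% Poisson bars. Eln climbs from 67.5 to 876 in replicate 1 and from 37.4 to 603 in replicate 2, Mgp is highest in the lowest bin of both libraries, and Lox has no such slope.

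The Cnn1-low class was itself mixed. Split at Rgs5 of 80 per 10000, a pericyte-associated regulator of G protein signalling, its Rgs5-low cells (1569 and 508) had 133 and 56.6 CPM of Eln and its Rgs5-high cells (850 and 156) had 22.3 and 19.6. Emilin1 was 71.9 and 59.2 against 48.6 and 46.8 CPM. Mgp ran the other way, at 1125 and 1291 against 1582 and 1574 CPM, and so did Ogn, at 72.7 and 72.7 against 135 and 122. Lox was 71.6 and 119 against 72.8 and 110.2 CPM. This split was made after values were seen and is given without a test.

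The cross-linking enzymes differed from each other. Lox (lysyl oxidase; 18:52516067-52529867, minus strand) stood at 75.9 and 139 CPM in Cnn1-high cells, 72.0 and 117 in Cnn1-low cells and 54.2 and 74.5 in transitional cells. It stood at 6.84 and 3.27 CPM in pericytes and 2.31 and 2.15 in endothelium, the last from 4 and 10 UMIs. The 3 Acta2-positive classes therefore did not overlap pericytes or endothelium in either library. Lox was 22.7-fold higher in smooth muscle than in pericytes (4.51 ± 0.30, edgeR adjusted p = 9.26e-07) and higher in transitional cells than in pericytes (3.69 ± 0.33, adjusted p = 3.32e-05). Smooth muscle was also higher than endothelium (5.75 ± 0.42, adjusted p = 1.1e-06; 7.86 ± 0.50 without barcodes of 2 lineages, adjusted p = 1.19e-07). Pericytes against endothelium gave 1.24 (adjusted p = 0.110), and 3.40 with barcodes of 2 lineages left out (adjusted p = 0.00388). Between Cnn1-high and Cnn1-low cells its log2 difference was 0.20 (adjusted p = 0.870), and between transitional and Cnn1-low cells -0.72 (adjusted p = 0.155). Unlike Eln, Lox was higher in replicate 2 than in replicate 1 in all 3 Acta2-positive classes.

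Loxl1 (lysyl oxidase-like 1, needed for elastic fibre renewal in adult tissue; 9:58287738-58313186, minus strand) was rare in the tested vascular classes. It stood at 14.8 CPM (173 UMIs) and 4.74 CPM (3 UMIs) in Cnn1-high cells against 2.27 (47 UMIs) and 2.37 (7 UMIs) in Cnn1-low cells. Pericytes held 1.59 and 1.47 CPM, transitional cells 0.651 and 0.745 from 3 and 1 UMIs, and endothelium no UMI, where a floor of 3 counts per library is 1.73 and 0.645 CPM. The fibroblast gate (4 and 14 cells) held 121 and 229 CPM. Loxl1 was higher in Cnn1-high than in Cnn1-low cells (2.52 ± 0.43, edgeR adjusted p = 0.00944), a call that rests on replicate 1. It did not pass with stricter barcode filters (2.06, adjusted p = 0.138) or without the library block (2.32, adjusted p = 0.172). Smooth muscle was higher than pericytes (2.04 ± 0.41, edgeR adjusted p = 0.00302). Its level was 4.94 and 5.51 times the endothelial floor in replicates 1 and 2. Those ratios leave out counting error, and the replicate 2 level rests on 3 and 7 UMIs. For pericytes against endothelium the replicate 1 pericyte level lay under the endothelial floor, and in replicate 2 it was 2.27 times that floor.

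Emilin1 (emilin 1, which joins elastin to microfibrils and to cells; 5:30913402-30921277, plus strand) was present in all 4 tested mural classes. It stood at 87.5 and 58.5 CPM in Cnn1-high cells, 63.9 and 56.5 in Cnn1-low cells, 41.2 and 40.2 in transitional cells and 56.2 and 42.9 in pericytes. Endothelium held 2.31 and 2.15 CPM, below all 4 tested mural classes in both libraries. The difference between smooth muscle and endothelium was 5.10 ± 0.24 on the log2 scale (edgeR adjusted p = 3.47e-08), and pericytes were also higher than endothelium (4.32 ± 0.25). Smooth muscle was modestly higher than pericytes (0.79 ± 0.13, edgeR adjusted p = 0.00064). Taken from CPM alone, without TMM factors, the log2 ratio was smaller, at 0.405 and 0.412 in replicates 1 and 2. Transitional cells were lower than Cnn1-low smooth muscle (-0.78 ± 0.16, adjusted p = 0.0151), a call lost with stricter barcode filters (adjusted p = 0.0868) and without the block (adjusted p = 0.120). Between Cnn1-high and Cnn1-low cells the difference was 0.43 ± 0.15 (adjusted p = 0.185).

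Fbln5 (fibulin 5, which carries tropoelastin and lysyl oxidases to microfibrils; 12:101746565-101819055, minus strand) stood higher in endothelium than in the 4 tested mural classes, and Ccl19 mural cells also carried it in replicate 1. Endothelium held 26.8% and 67.5% of its UMIs in all, and Ccl19 mural cells 24.8% and none. Endothelium held 23.7 CPM (41 UMIs in 9 cells) and 12.04 CPM (56 UMIs in 21 cells). Cnn1-high cells held 0.686 and 1.58 CPM from 8 and 1 UMIs, Cnn1-low cells 0.386 and 0.676 from 8 and 2 UMIs, and pericytes 1.69 and 1.69 from 18 and 15 UMIs. Every tested mural class was at 1.69 CPM or below in both libraries. Fbln5 was 26.8-fold lower in smooth muscle than in endothelium (-4.74 ± 0.46, edgeR adjusted p = 9.83e-06) and lower in pericytes than in endothelium (-3.41 ± 0.44, adjusted p = 0.00011; -7.13 ± 0.75 without barcodes of 2 lineages, where pericytes kept 1 and 0 UMIs, adjusted p = 1.18e-05). The low pericyte level sat in few barcodes: those with Dcn of at least 5 per 10000 (22 and 97 cells; Dcn is a fibroblast marker) held 13 of 18 and 13 of 15 of the UMIs, a split made after values were seen. Smooth muscle against pericytes gave -1.33 ± 0.53 and did not pass (adjusted p = 0.0638). With barcodes of 2 lineages left out, the same comparison gave 2.85 ± 1.03 (adjusted p = 0.0434), a size that is loosely fixed at 1 UMI.

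Promoter windows (250 bases before the start, RefSeq, GRCm38.p6) were found for 4 of the 10 genes, 5 windows in all. The first of the 2 Fbln5 windows, chr12:101819120-101819369 on the minus strand, with no annotated gene over it, is shown because Fbln5 was called lower in both smooth muscle and pericytes than in endothelium. Capitals mark GGGCGG, the core of a GC box, here on the reverse strand, 48 and 221 bases before the start. The Ogn window, chr13:49607765-49608014 on the plus strand, lies within Cenpp outside any exon and is shown as a contrast, from a gene of mural cells. Its capitals mark 2 overlapping TATAAA matches, 1 on each strand, 227 and 229 bases before the start.
Fbln5: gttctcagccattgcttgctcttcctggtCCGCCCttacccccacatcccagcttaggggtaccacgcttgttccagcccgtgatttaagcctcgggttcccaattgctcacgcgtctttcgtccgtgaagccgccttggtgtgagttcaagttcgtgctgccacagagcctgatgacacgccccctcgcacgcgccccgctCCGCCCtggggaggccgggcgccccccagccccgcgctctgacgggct
Ogn: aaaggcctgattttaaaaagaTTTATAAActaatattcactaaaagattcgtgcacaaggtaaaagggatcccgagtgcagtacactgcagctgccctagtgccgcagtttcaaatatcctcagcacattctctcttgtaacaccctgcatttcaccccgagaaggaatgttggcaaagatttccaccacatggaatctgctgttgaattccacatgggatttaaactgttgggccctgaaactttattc
Searched on both strands, GGGCGG occurred in 32.7% of 32851 windows of this length and in 2 of the 5 windows of the family, and TATAAA in 12.4% and in 1 of the 5. The CArG box, the motif of serum response factor in contractile genes, occurred in 1.47% of windows and in none of the 5. These are matches of letters in a window and say nothing of binding.

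Within endothelium, Eln, Fbln5, Fbn1 and Mgp were higher in cells with arterial markers. Cells with a UMI of at least 2 of Bmx, Gkn3, Sema3g and Hey1, genes of arterial endothelium, numbered 46 and 151 and were set against the other 202 and 974, a split chosen after the class levels were seen. Of the 8 genes, 4 were higher and none lower in arterial-marker cells, where 2.41% of the 12138 genes tested passed (1.77% higher, 0.643% lower). Eln stood at 135 and 110.3 CPM against 6.69 and 3.91 (4.54 ± 0.36, edgeR adjusted p = 3.82e-05). Fbln5 stood at 101 and 67.4 CPM against 1.49 and 0.261 (from 2 and 1 UMIs; 6.94 ± 0.62, adjusted p = 5.96e-05), and Mgp at 671 and 1020 against 75.0 and 73.0 (3.46 ± 0.24, adjusted p = 8.52e-06). Fbn1 stood at 13.0 and 15.9 CPM (5 and 13 UMIs) against 1.49 and 0.261 (2 and 1 UMIs; 4.50 ± 0.82, adjusted p = 0.0119), a call lost without the block (4.40 ± 0.92, adjusted p = 0.0842). Arterial-marker cells thus held 85.2% and 85.7% of endothelial Eln UMIs, 95.1% and 98.2% of Fbln5 UMIs and 71.9% and 74.8% of Mgp UMIs. Emilin1 (0.16), Lox (2.91, adjusted p = 0.246) and Ogn (1.48) did not pass, and Loxl1 had no UMI. The median of the 8 genes was 3.19 (all genes -0.03), with Loxl1 counted in it at -0.02 although it had no UMI.

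Smooth muscle markers moved with this split: their sum was 1736 and 1146 CPM in arterial-marker cells against 645 and 393 in the others, Acta2 was 676 and 382 against 232 and 109.8, and Cnn1 had 1 and 0 UMIs. With barcodes of 2 lineages left out, Eln (4.57 ± 0.46, edgeR adjusted p = 0.000104), Fbln5 (adjusted p = 7.27e-05), Fbn1 (4.77 ± 0.93, adjusted p = 0.0166) and Mgp (3.73 ± 0.31, adjusted p = 2.22e-05) were still called. The 26 and 40 endothelial cells with Acta2 of at least 5 per 10000 had 99.7 and 82.9 CPM of Eln against 29.1 and 19.96 in the rest, and 19.9 and 41.5 CPM of Lox against 0.632 and 0.449. Mgp was 1130 and 1078 CPM against 120 and 203, and Fbln5 was 140 and 51.8 against 12.6 and 10.3. These cells held 47.2% and 18.7% of endothelial Mgp UMIs and 51.2% and 17.9% of Fbln5 UMIs, the latter in 3 and 6 cells. Ogn had no UMI against 1.90 CPM in replicate 1, and 51.8 against 3.14 in replicate 2.

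**Figure D3:**
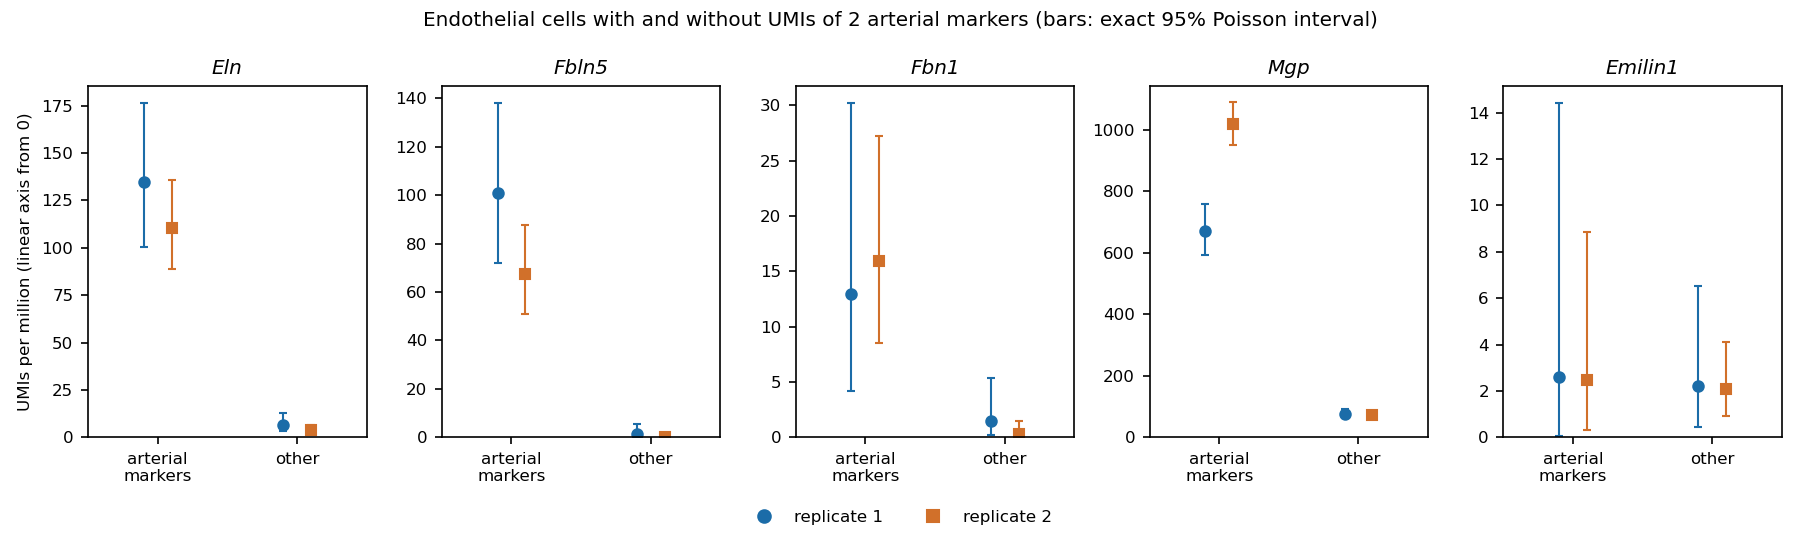
Levels of Eln, Fbln5, Fbn1, Mgp and Emilin1 (CPM) in endothelial cells with at least 2 arterial markers and in all other endothelial cells, 1 point per library with 95% Poisson bars. Eln, Fbln5, Fbn1 and Mgp are higher in arterial-marker cells in both libraries (Fbln5 101 and 67.4 against 1.49 and 0.261), and Emilin1 is low in both.

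The microfibril genes were scarce in the tested vascular classes. Fbn1 (fibrillin 1, the backbone of the microfibril; 2:125300594-125507993, minus strand) stood at 2.14 CPM and no UMI in Cnn1-high cells, 1.40 and 0.676 in Cnn1-low cells, 2.17 and 2.23 in transitional cells, 0.843 and 0.563 in pericytes and 4.04 and 3.01 in endothelium. The fibroblast gate (4 and 14 cells) held 201 and 153 CPM. Pericytes were lower than endothelium (-2.43 ± 0.58, edgeR adjusted p = 0.00596). Without barcodes of 2 lineages this was -3.40 ± 0.80 (adjusted p = 0.00443), with 2 and 2 pericyte UMIs. Smooth muscle against pericytes gave 1.27 ± 0.52 (edgeR adjusted p = 0.0702), which passed with barcodes of 2 lineages left out (2.53, adjusted p = 0.0144). With all barcodes the 2 libraries disagreed in sign, with CPM log2 ratios of 0.58 in replicate 1 and -0.27 in replicate 2. Against endothelium smooth muscle gave -1.15 (adjusted p = 0.0890).

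Mfap4 and Mfap5 encode microfibril-associated glycoproteins. Mfap4 (11:61485431-61488900, plus strand) had 131 and 74 UMIs in all, of which the 4 and 14 fibroblast-gate cells held 94 and 58 (71.8% and 78.4%), a level of 1889 and 1106 CPM. Pericytes held 1.31 and 0.789 CPM of Mfap4, and all 14 and 7 of these UMIs were in the pericyte barcodes with Dcn of at least 5 per 10000. Endothelium had none. Mfap5 (6:122505845-122529290, plus strand) had 93 and 13 UMIs in all. In replicate 1, 56 of the 93 (60.2%) lay in Ccl19 mural cells, at 56.6 CPM, and the fibroblast gate held 522 and 153 CPM. The other gated classes were at 0.338 CPM or below.

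Mgp (matrix Gla protein; 6:136872435-136875823, minus strand) was present in every vascular class and, between the smooth muscle classes, ran opposite to Eln. Cnn1-high cells held 771 and 600.5 CPM, Cnn1-low cells 1283 and 1354, transitional cells 1716 and 1981 and pericytes 1687 and 1891. Endothelium held 208 and 239 CPM. As means these were 686 ± 121 CPM (SD, n = 2), 1319 ± 50, 1848 ± 187, 1789 ± 144 and 223 ± 22.1. The order was the same in both libraries, but transitional cells and pericytes lay within each other's range. Mgp was 1.8-fold lower in Cnn1-high than in Cnn1-low cells (-0.85 ± 0.18, edgeR adjusted p = 0.0211), but not past the threshold with stricter barcode filters (-0.57, adjusted p = 0.449) or without the block (-0.88, adjusted p = 0.288). Smooth muscle was lower than pericytes (-0.57 ± 0.15, adjusted p = 0.0102), a call also lost with stricter filters (-0.31, adjusted p = 0.342) and without the block (-0.60, adjusted p = 0.0917). Against endothelium smooth muscle was higher by 2.33 ± 0.17 (adjusted p = 1.19e-06) and pericytes by 2.91 ± 0.19 (3.50 ± 0.24 without barcodes of 2 lineages). Over the Cnn1 bins Mgp went from 1373 to 761 CPM in replicate 1 and from 1416 to 579 in replicate 2, with the lowest level in the bin of 6 to 12 in both (607 and 525). In the oligodendrocyte gate it was 12.7 and 48.8 CPM. The fibroblast gate (4 and 14 cells) held 7676 and 4900 CPM of Mgp, above every vascular class.

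Ogn (osteoglycin; 13:49608046-49624501, plus strand, within Cenpp on the other strand) was spread over mural cells and fibroblasts. It stood at 167 and 53.7 CPM in Cnn1-high cells, 94.4 and 83.8 in Cnn1-low cells, 219 and 199 in transitional cells and 195 and 135 in pericytes. The fibroblast gate (4 and 14 cells) held 342 and 362 CPM, above these 4 classes. Endothelium held 1.73 and 5.16 CPM, and the oligodendrocyte gate 0.910 and 2.12. Mural cells were therefore well above endothelium in both libraries, with smooth muscle higher by 4.77 ± 0.45 (edgeR adjusted p = 6.91e-06) and pericytes by 5.11 ± 0.46. The Cnn1-high classes of the 2 libraries disagreed, 1 above and the other below the Cnn1-low level, and the comparison gave 0.50 ± 0.33 (adjusted p = 0.582). In replicate 1 Ogn reached 314 CPM in the highest Cnn1 bin, against 95.2 in the lowest, where replicate 2 gave 96.5 and 88.9. Transitional cells against Cnn1-low cells gave 1.05 ± 0.32 (adjusted p = 0.0735), which passed with no filter on low counts (adjusted p = 0.00107), with stricter barcode filters (adjusted p = 0.0107) and with barcodes of 2 lineages left out (adjusted p = 0.0330).

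**Figure D4:**
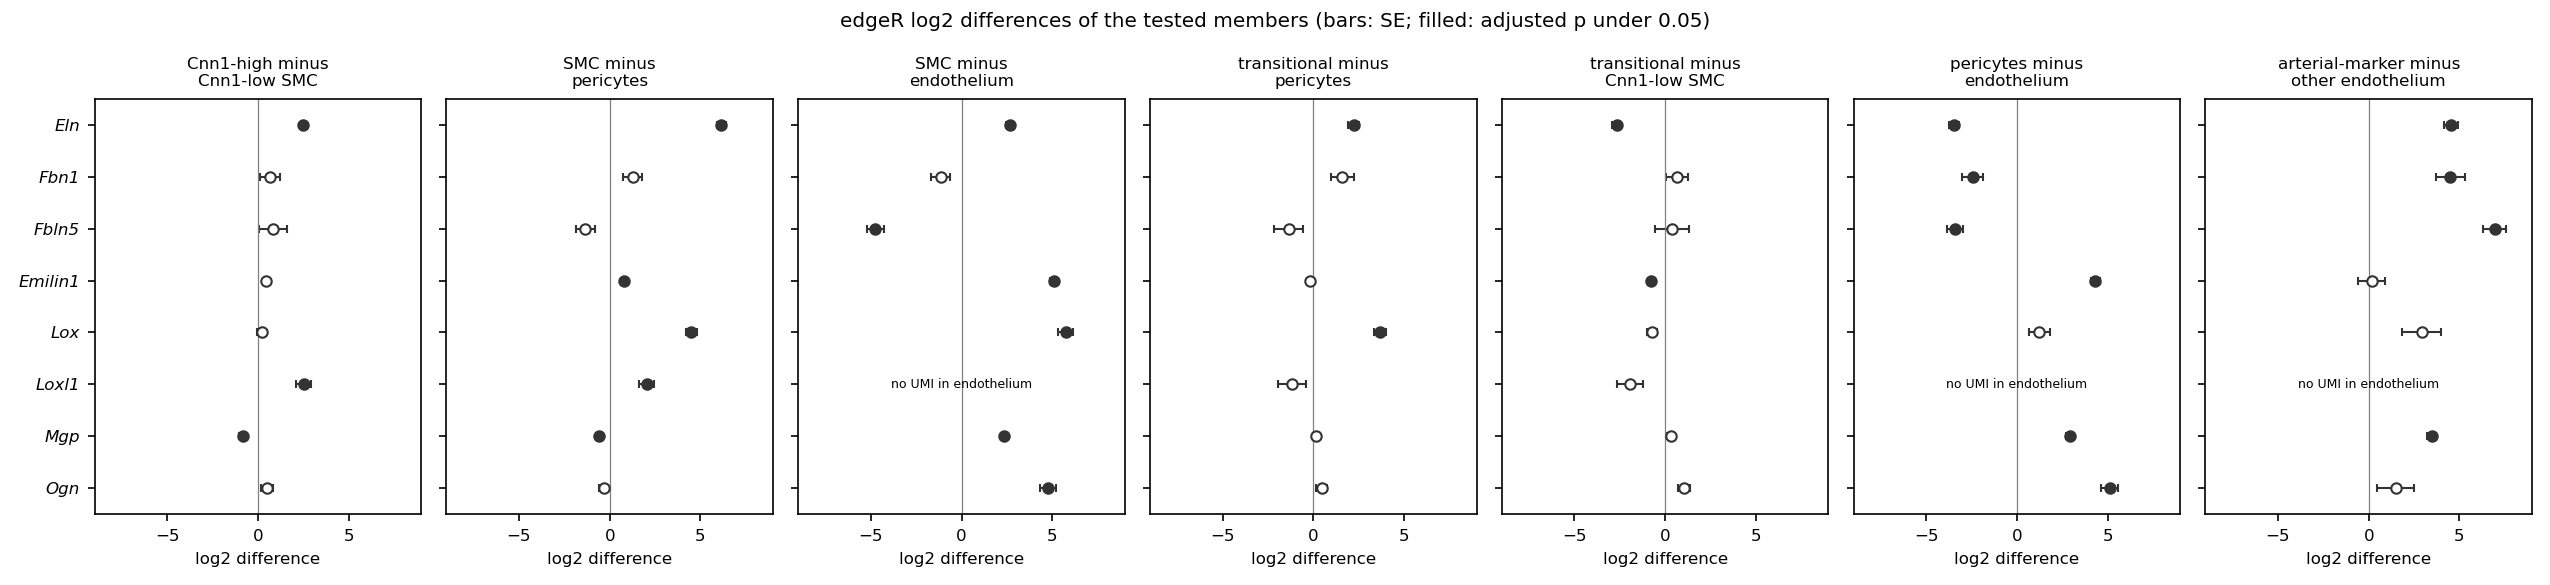
Log2 difference of the 8 tested genes in 7 comparisons between classes, from edgeR on summed counts, with standard errors as bars and filled points for adjusted p under 0.05. Loxl1 had no UMI in endothelium and has no point in the panels that involve endothelium. Eln is the one gene called in all 7 panels (from 2.23 to 6.16 in size), and Fbln5 is called in the panels that involve endothelium.

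The Ccl19 mural cells, too few in replicate 2 (10 cells) to test, carried the highest Eln level of any vascular class in replicate 1, 948 CPM (888 to 1010, 937 UMIs), against 1 UMI in replicate 2. In replicate 1 they also held 144 CPM of Lox, 549 of Ogn, 38.4 of Fbln5, 26.3 of Fbn1 and 1315 of Mgp. Replicate 2 gave 21.8 CPM of Lox, 436 of Ogn, 741 of Mgp and no UMI of Fbln5, Fbn1, Loxl1 or Emilin1. In replicate 1 Eln was higher with more Acta2, at 1792, 1144 and 289.9 CPM in the 15, 35 and 60 cells with Acta2 of at least 80, 20 to 80 and below 20. The 11 cells with the most UMIs of a gene held 55.2% of the Eln UMIs and 92.9% of the Mfap5 UMIs but 28.7% of the Ogn UMIs. Fibroblast markers were present in the class: Col3a1 was at 3957 CPM, Col1a1 at 449 and Dcn at 207, while Lum and Dpt had no UMI. The 62 cells with at least 2 fibroblast markers had 1202 CPM of Eln and 86.1 of Mfap5 against 458 and no UMI in the other 48. Fbln5 was 38.4 against 38.5 CPM. The part of these markers in the levels was not tested.

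Other genes of the same biology were counted from 5 lists in the comparison of smooth muscle with pericytes, where the median of all genes was -0.10 and 45.9% of all genes passed (20.3% higher, 25.6% lower). Of 18 tested genes of elastic fibre assembly, 4 were higher and 7 lower in smooth muscle (median -0.41). Ltbp1, a latent TGF-β binding protein of microfibrils, was higher (5.23 ± 0.26, edgeR adjusted p = 1.03e-07), at 283 and 352 CPM in Cnn1-high cells against 11.1 and 7.33 in pericytes. Fbln1 (fibulin 1) was lower (-5.74 ± 0.23), at 41.1 and 44.9 CPM in pericytes, and so was Tnxb (tenascin XB; -4.61 ± 0.29). Of 10 tested proteases and inhibitors, 4 were higher and 3 lower (median 0.79). The 3 largest differences were metalloproteinase inhibitors, all higher: Timp2 (4.05 ± 0.13), Timp3 (2.43 ± 0.12) and Timp4 (2.35 ± 0.53). Timp4 rested on replicate 1, with 19.5 and 1.58 CPM in Cnn1-high cells.

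Of 16 tested regulators of mineralisation, 4 were higher and 6 lower in smooth muscle (median -0.36). Spp1 (osteopontin; -5.24 ± 0.35, edgeR adjusted p = 7.79e-07) and Bmp4 (a bone morphogenetic protein; -5.01 ± 0.29) were lower, at 93.7 and 86.9 CPM and 130.0 and 88.4 CPM in pericytes. Sp7 (osterix, a transcription factor of osteoblasts) was higher (4.71 ± 0.61, edgeR adjusted p = 0.000112) at a low level, 5.57 and 1.58 CPM in Cnn1-high cells. Cnn1-low cells held 4.68 and 1.69 CPM of Sp7 and pericytes 0.187 and 0.113, so the size rests on few UMIs and is loosely fixed. Of 5 tested genes mutated in primary familial brain calcification, Slc20a2, a phosphate transporter, was higher (1.27 ± 0.18, adjusted p = 0.000258) and 3 were lower. Those included Pdgfrb, the PDGF receptor of pericytes and one of the pericyte markers here (-2.06 ± 0.13), and Jam2, a junction protein (-2.70 ± 0.35) that stood at 256 and 239 CPM in endothelium. Of 7 tested small leucine-rich proteoglycans other than Ogn, 2 were higher and 4 lower (median -0.71), with Fmod (fibromodulin) higher (2.78 ± 0.39) and Dcn (decorin, -3.18 ± 0.39) and Ecm2 (-2.06 ± 0.13) lower. All 7 were higher in pericytes than in endothelium (median 4.80, all genes 0.03), where 23.1% of all genes were higher. Dcn is one of the fibroblast markers, whose sum was 382 and 351 CPM in pericytes against 60.9 and 37.9 in Cnn1-low cells. With barcodes of 2 lineages left out, 14 of the 15 genes named from the lists were still called. Jam2 was not (-0.67 ± 0.31, edgeR adjusted p = 0.102). Over all 12307 genes of that fit, 2643 were higher and 2744 lower. The 15 were picked as called in the same comparison, so most of them staying called says little. Dcn (-6.07 ± 0.75, edgeR adjusted p = 9.33e-05) is a marker by which barcodes were left out, so its value there follows in part from the exclusion.

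As a description, the genes most like each member over the 10 class sums were taken by Pearson r of log2(CPM + 5) after centring each library. The sums share their libraries and classes, so high values are common. For Eln these were Serf2 and Col18a1 (r = 0.99) and Npnt, Anxa11 and Abracl (0.98). For Lox they were Atp1b1 and Myom1 (1.00) and Slc4a3, Myh11 and Fgf1 (0.99), and for Emilin1 Rcn3 (1.00) and Pdlim1, Phldb2, Oat and Bmpr1a (0.99). For Fbln5 they were Cops7a, Clec14a, Uhmk1 and Alas1 (0.99) and Ubl3 (0.98). For Mgp they were Cbr3, Cyp7b1, Nr2f1, Sgce and Tspyl5 (0.99), and for Ogn Asph, Col1a2, Lrrc75a, Dock11 and Zeb2 (0.98).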

How the data were processed

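The authors deposited raw UMI counts per gene and barcode for each of the 2 libraries. Cell Ranger 3.1.0, CASAVA 1.8 and Seurat 2.3.4 are named in the submitters' processing notes, with no role given, and the headers of the count files carry software version 3.1.0. Sources used here give neither a genome build nor how counting treated strand. A lookup matched 30766 of the 30905 gene IDs to GENCODE M21 (GRCm38), whose positions are printed. Without known strand use, reads of Eln, Fbn1, Lox, Mfap4 and Ogn cannot be told from those of overlapping genes on the other strand. Total counts were 59026190 and 26218090.

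Barcodes were filtered and gated on marker counts, and counts of each class with at least 20 cells per library were summed (5 classes in 2 libraries) and tested with edgeR 4.0.16 (TMM, filterByExpr, Benjamini-Hochberg over all genes, R 4.3.3). The library was a block, since all classes of a library come from the same preparation. Ccl19 mural cells did not reach 20 cells in replicate 2, so their comparison was not run. Per-class levels are CPM, UMIs per 1000000 of the class. The log2 differences of the fit use TMM factors and CPM does not, so they need not match ratios of the printed levels. For Mgp in smooth muscle against pericytes, the fit gave -0.57 and the CPM log2 ratios were -0.76 and -1.07 in replicates 1 and 2. Scrublet (scanpy 1.11.5) called 197 doublets (2.39%) in replicate 1 and 0 in replicate 2, where it had not worked, so doublets were not removed. Alternatives were DESeq2 1.42.0, its size factors, no filter, no block, each library alone, stricter barcode filters (1000 genes, 2000 UMIs, under 10% mitochondrial), the highest 6% of Scrublet scores left out, and barcodes of 2 lineages left out. The named genes were all 10 members, the 3 largest called differences of each list in smooth muscle against pericytes, and the 5 genes most like each member of at least 20 CPM in a class. Members, lists and gates were chosen with earlier results of these data known. The fit was tested on simulated data.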

Additional observations from a re-analysis of the deposited data

How the results depend on the processing

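Every called difference kept its sign in each library alone. Both libraries are in the fit, so this says little, and for Loxl1 against endothelium the added count of 1 CPM sets the sign. Sizes moved more. Without replicate 1, 35 differences, called or not, lay further from the fit than the SD of the single-library CPM ratios, and 20 did not. Without replicate 2 these were 34 and 21. The single-library ratios use no TMM factors. The replicate block mattered most: without the block, 0 genes of the family were called between Cnn1-high and Cnn1-low smooth muscle (3 with it), 1 between transitional cells and pericytes (2 with it) and 0 between transitional and Cnn1-low cells (2 with it). Across all genes, the fit without the block called 14 higher and 55 lower between Cnn1-high and Cnn1-low cells, where 276 and 441 were called with it, 508 and 391 instead of 1163 and 1024 between transitional cells and pericytes, 122 and 121 instead of 506 and 533 between transitional and Cnn1-low cells, 1485 and 1841 instead of 2519 and 3164 between smooth muscle and pericytes, 1828 and 1851 instead of 2865 and 2893 between pericytes and endothelium, and 72 and 12 instead of 215 and 78 in arterial-marker endothelium. Stricter barcode filters left 1 gene of the family between Cnn1-high and Cnn1-low cells, with 141 higher and 145 lower over all genes, and 287 and 322 between transitional and Cnn1-low cells. With no filter on low counts, 4 genes of the family passed between transitional and Cnn1-low cells, with 627 higher and 739 lower over all 19287 genes, and 336 higher and 217 lower genes in arterial-marker endothelium. Signs turned for Ogn between Cnn1-high and Cnn1-low cells (-0.32, stricter filters), and, with barcodes of 2 lineages left out, for Fbln5 between smooth muscle and pericytes (2.85), between transitional cells and pericytes (1.25) and between transitional and Cnn1-low cells (-1.44; -0.14 with stricter filters) and for Ogn in arterial-marker endothelium (-0.70). The cause was not tested. DESeq2 and its size factors turned no sign. Fbln5, Fbn1 and Loxl1 in mural cells rest on few UMIs, and 126 Cnn1-high cells in replicate 2 limit that class.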
